A study of Sus scrofa with 6 samples.

Results

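The genes described here encode the proteins that neutrophils and their precursors store for killing microbes. There are 7 of them among 26733 features with values in liver of newborn piglets. MPO, ELANE, PRTN3 and AZU1 belong to the primary granules, LTF and LCN2 to the secondary granules, and S100A8 to the cytosol. S100A8 and LCN2 were taken by their Ensembl identifiers and the other 5 by symbol in a table of Ensembl identifiers, which held all 7. The piglets were Landrace x Yorkshire crosses. Their mothers ate a diet with 0.26% tryptophan at both daily meals (2×Trp) or 0.39% in the morning and 0.13% in the afternoon (High-Low). Each diet has 3 liver libraries, and by its title the study looked for adverse effects of dietary tryptophan. Whether each library is a different piglet or litter is not in the labels, so p-values cover the variation among these libraries alone, which may be technical.

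Granule proteins are made in sequence while a neutrophil matures. Primary granule genes are transcribed in promyelocytes, an early precursor, and are shut off later. Secondary granule genes follow in myelocytes and metamyelocytes, and S100A8 stays on in the mature cell. The liver is a site of blood formation before birth, and this activity wanes around birth, so RNA of the primary granule genes marks precursors more than circulating neutrophils.

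Values are read as FPKM (fragments normalised to transcript length and library size) and summed to 956426 to 1230288 per library. Whole reads could not be recovered from them, so the depth is unknown and counting error has no interval here. All 7 genes passed the filter on low values, 1 FPKM or more in at least 3 libraries, which 10901 features passed. In the deposited susScr3 coordinates PRTN3 lies on chromosome 2 at 77474233 to 77477177 and ELANE at 77481640 to 77483778, both on the plus strand and 4.46 kb apart. AZU1 is at 78284635 to 78287017 on the minus strand, 801 kb from ELANE. In the RefSeq order of genes on the later assembly Sscrofa11.1, ELANE, PRTN3 and AZU1 follow each other with no gene between them. MPO is on chromosome 12 (36245448 to 36257293), LTF on 13 (32577739 to 32609442), S100A8 on 4 (105091816 to 105092868) and LCN2 on 1 (302600679 to 302605199). The deposited tables list the same length, 231, for AZU1, PRTN3 and ELANE, and 215 for LTF, far less than these genes span. The sources used here do not give the length that divided the reads, so the order of levels between genes is uncertain, while a gene's values can be set side by side between libraries. AZU1, PRTN3 and ELANE are related members of the serine protease family, and how reads shared between them were assigned is not given either.

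All 4 primary granule genes were highest in 1 library, High-Low 2. MPO, the peroxidase that makes hypochlorous acid, had 1.25, 2.05 and 3.26 FPKM in 2×Trp 1, 2 and 3. In the same order of replicates, the High-Low libraries had 1.84, 7.84 and 2.28 FPKM. High-Low 2 thus stood above all others, and the remaining High-Low libraries lay inside the 2×Trp range. ELANE, neutrophil elastase, had 2.88, 2.84 and 5.52 FPKM in 2×Trp and 2.99, 15.2 and 4.22 in High-Low. PRTN3, proteinase 3, had 5.75, 5.51 and 6.91 FPKM in 2×Trp and 3.30, 26.8 and 5.37 in High-Low. For PRTN3, High-Low 1 and 3 were the lowest of the 6 libraries. AZU1 encodes azurocidin, an antimicrobial relative of elastase without protease activity. It had 9.16, 10.7 and 18.3 FPKM in 2×Trp and 9.08, 58.4 and 10.4 in High-Low. The groups overlapped in all 4 genes, and 2×Trp 3 was the next highest library in each of them.

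The secondary granule genes and S100A8 were highest in High-Low 2 as well. LTF encodes lactoferrin, which binds iron. It had 2.83, 2.27 and 2.53 FPKM in 2×Trp and 3.62, 7.08 and 3.28 in High-Low, so every High-Low library lay above every 2×Trp library. LCN2, lipocalin 2, binds bacterial iron carriers and is also made by hepatocytes in inflammation. It had 2.58, 1.68 and 3.005 FPKM in 2×Trp and 3.52, 9.21 and 2.95 in High-Low, and the groups overlapped because High-Low 3 fell just under 2×Trp 3. S100A8, a calcium-binding subunit of calprotectin, had 15.0, 20.3 and 20.5 FPKM in 2×Trp and 18.2, 58.9 and 24.0 in High-Low. High-Low 1 lay below 2×Trp 2 and 3 for this gene. The next highest library was High-Low 1 for LTF and LCN2 and High-Low 3 for S100A8.

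**Figure D1:**
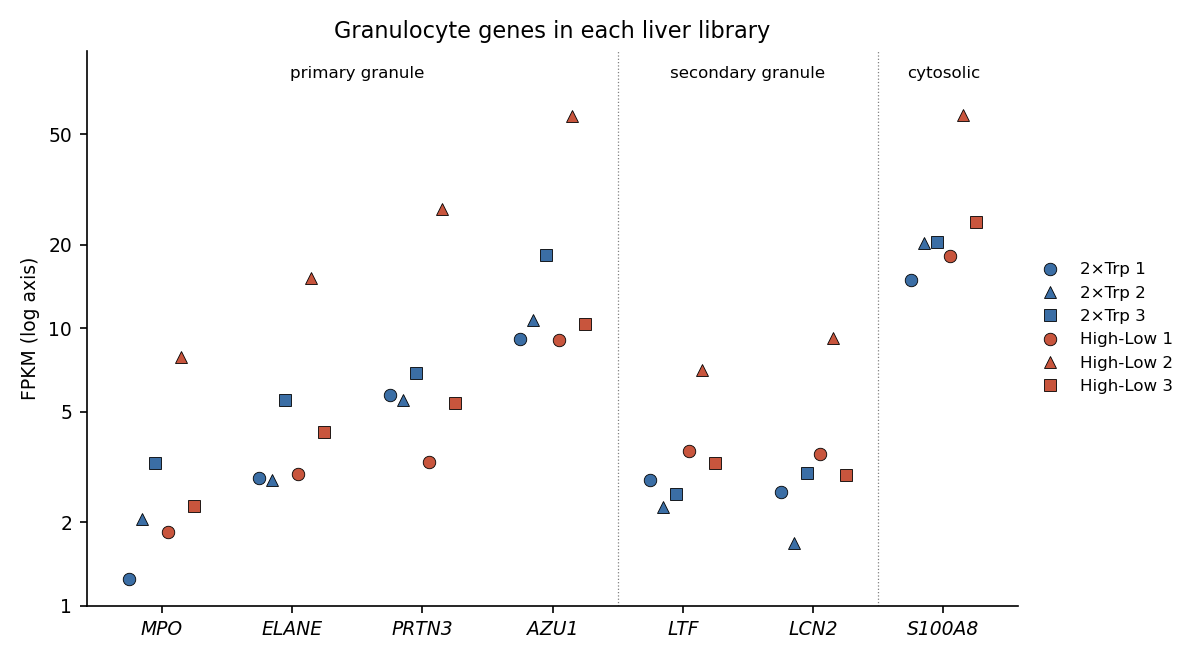
FPKM (log axis) of the 7 genes in each of the 6 libraries, coloured by maternal diet, with the marker shape giving the replicate number. High-Low 2, the orange-red triangle, is the highest point for every gene, from 7.08 FPKM for LTF to 58.9 for S100A8.

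Against the median of the other 5 libraries it had 5.63 times the AZU1 value, 5.09 times the ELANE value, 4.87 times the PRTN3 value and 3.82 times the MPO value. The same ratio was 3.13 for LCN2, 2.90 for S100A8 and 2.50 for LTF, so by this measure each primary granule gene exceeded each of these 3. That order did not hold against the next highest library, where the ratio was 3.88 for PRTN3, 3.19 for AZU1 and 2.76 for ELANE, but 2.41 for MPO against 2.62 for LCN2 and 2.45 for S100A8. Both orders describe 1 library. High-Low 2 was the highest library for 7 of the 7 genes, against 23.8% of the 10901 features tested. It had at least 1.5 times the next library for 7 of the 7, against 2.79% of those tested, and at least 2 times for 6 of the 7, all but LTF at 1.96 times, against 0.844%. The genes were chosen with results known, and High-Low 2 was singled out as the library that led. These shares are therefore a description and not a test. In bulk tissue, more cells of a type and more RNA per cell cannot be told apart.

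Among the other 5 libraries each gene varied between 1.60-fold and 2.61-fold from lowest to highest. MPO had the widest range, from 1.25 to 3.26 FPKM, and LTF the narrowest, from 2.27 to 3.62 FPKM. In the 2×Trp mean, S100A8 lay above 71.4% of the features tested and AZU1 above 64.1%. PRTN3 lay above 47.2%, ELANE above 35.0%, LTF above 25.2%, LCN2 above 24.1% and MPO above 21.4%. In High-Low 2 the share was 86.3% for S100A8, 86.2% for AZU1 and 53.8% for MPO.

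Between the diets 0 of the 7 genes passed the test, limma on log2(FPKM + 1) with p adjusted over all 10901 features (adjusted p = 0.998 for each). The share called over all features was 0.00917%, a single unnamed feature that was higher in High-Low. At an unadjusted p under 0.05 there were also 0 of the 7 genes, against 3.16% of all features. Every log2 fold change was above 0, with a median of 0.60, where 49.5% of all features were above 0 and their median was -0.004. MPO had 2.19 ± 1.01 FPKM in 2×Trp and 3.99 ± 3.35 in High-Low (SD, n = 3 each), and AZU1 had 12.7 ± 4.90 and 25.9 ± 28.1. The SD of AZU1 in High-Low exceeded its mean there. LTF had the smallest spread, with 2.54 ± 0.281 FPKM against 4.66 ± 2.10 (SD, n = 3 each).

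The intervals were wide. The log2 fold change was 0.52 for AZU1 with a 95% interval from -1.04 to 2.08, and 0.38 for PRTN3 with one from -1.11 to 1.86. For ELANE it was 0.60 (-0.64 to 1.83), and for MPO 0.50 (-0.59 to 1.59). A higher or a lower level of the primary granule genes in High-Low by 1.5 times therefore lay inside each of these intervals. LTF stood at 0.62 (-0.05 to 1.28), LCN2 at 0.75 (-0.16 to 1.65) and S100A8 at 0.66 (-0.31 to 1.63). For LTF the groups did not overlap, as in 3.06% of all features with High-Low on the higher side.

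Without High-Low 2 the primary granule genes turned to the other side of 0. AZU1 then had a log2 fold change of -0.30, PRTN3 of -0.43, MPO of -0.01 and ELANE of -0.01, with 95% intervals that all included 0. LTF stayed at 0.33, LCN2 at 0.32 and S100A8 at 0.17. The median of the 7 went from 0.60 to -0.01, while that of all features was -0.02 without this library. None of the 7 passed (adjusted p from 0.491 to 0.988 in limma), so the positive direction of the primary granule genes rested on High-Low 2.

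**Figure D2:**
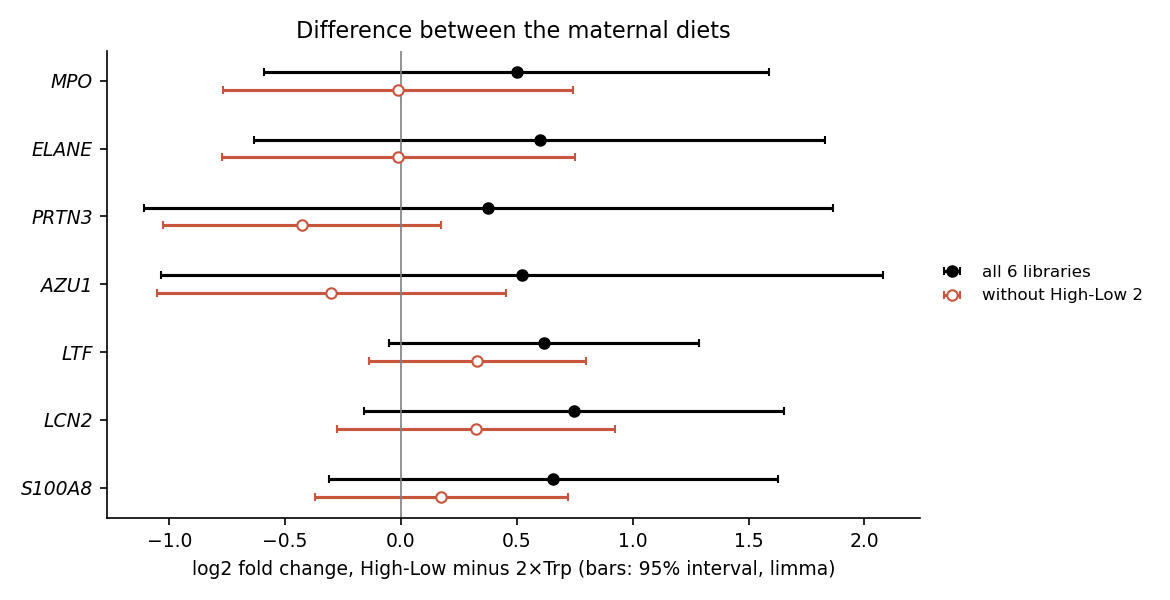
Log2 fold change of each gene, High-Low minus 2×Trp, with 95% intervals from limma, for all 6 libraries (black) and without High-Low 2 (open circles). All intervals include 0, and the values of MPO, ELANE, PRTN3 and AZU1 move to 0 or below without that library, down to -0.43 for PRTN3.

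Primary and secondary granule genes were then set against each other within each library. The mean log2(FPKM + 1) of MPO, ELANE, PRTN3 and AZU1 minus that of LTF and LCN2 was 0.42, 0.88 and 1.10 in 2×Trp 1, 2 and 3. The High-Low libraries gave 0.04, 1.28 and 0.53. High-Low 2 and 2×Trp 3 were the most tilted to primary granule genes, and High-Low 1 the least. Because of the doubt about lengths, the size of this difference within a library is uncertain, while libraries can be set side by side. As a ratio of geometric means in FPKM, primary over secondary was 1.37, 2.203 and 2.50 in 2×Trp and 1.00, 2.57 and 1.55 in High-Low. By this ratio the balance in High-Low 2 was close to that in 2×Trp 3, although its primary granule genes had 20.8 FPKM as a geometric mean against 6.91. The group means of the log2 difference were 0.80 ± 0.35 in 2×Trp and 0.62 ± 0.62 in High-Low (SD, n = 3 each), and the groups overlapped. No test was made of this score, since its genes were chosen with results known.

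**Figure D3:**
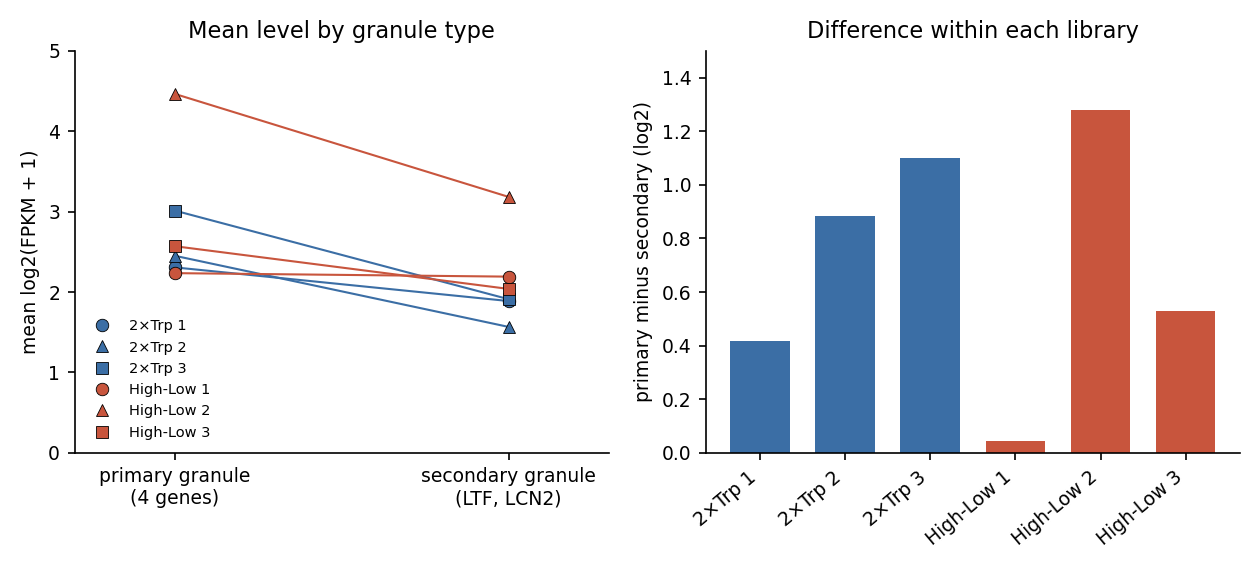
Left, mean log2(FPKM + 1) of the 4 primary granule genes and of LTF and LCN2, joined within each library. Right, their difference in each library, which ran from 0.04 in High-Low 1 to 1.28 in High-Low 2, with 2×Trp 3 at 1.10.

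The primary granule genes kept 1 order of level in all 6 libraries, AZU1 over PRTN3 over ELANE over MPO in FPKM, subject to the doubt about lengths. The ratio of AZU1 to ELANE stayed between 2.46 and 3.84 and that of ELANE to MPO between 1.39 and 2.31. The ratio of AZU1 to PRTN3 ran from 1.59 in 2×Trp 1 to 2.75 in High-Low 1. LTF over LCN2 lay between 0.768 in High-Low 2 and 1.35 in 2×Trp 2. S100A8 exceeded AZU1 in each library, by 1.01 times in High-Low 2 and 1.12 times in 2×Trp 3, and by 1.64 to 2.32 times in the other 4. High-Low 2 and 2×Trp 3 also had the most primary granule RNA. AZU1 was the largest part of that RNA in FPKM, so this ratio and that level are not independent.

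The lead of High-Low 2 over the median of the other libraries was shorter in the other granule genes that were tested. Of 9 further primary granule symbols, 8 had an identifier and 5 were tested, of which 0 passed, 1 was positive and 4 were negative (median log2 fold change -0.05). CTSC, the protease that activates the granule serine proteases, had 42.7, 45.5 and 33.1 FPKM in 2×Trp and 55.2, 51.8 and 48.0 in High-Low. CFD, complement factor D, a serine protease that fat and other tissues also make, had 127, 171 and 175 FPKM in 2×Trp and 93.4, 175 and 110 in High-Low. These 2 genes are made by many cells besides neutrophils, and High-Low 2 did not stand apart in either. The 3 members of this list under the filter, named after their values were seen, went different ways. PRSS57, a primary granule protease, is listed at 0 in 3 libraries, with 0.141 and 0.200 FPKM in 2×Trp 2 and High-Low 1 and 0.936 in High-Low 2. BPI, which binds bacterial endotoxin, had 0.0392 FPKM in High-Low 2, its lowest value, and 0.0928 to 0.796 in the others. LYZ, lysozyme, had 1.77 FPKM in High-Low 2, next to 1.73 in 2×Trp 2 and 0.270 to 0.916 in the other 4.

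Of 19 further secondary and tertiary granule symbols, 8 had an identifier and 2 were tested, MMP9 and CD177, of which 0 passed. MMP9, gelatinase B, had 1.46, 0.563 and 0.659 FPKM in 2×Trp and 0.398, 1.43 and 1.41 in High-Low. CD177, a surface protein of neutrophils, had 0.617, 0.220 and 1.74 FPKM in 2×Trp and 1.70, 1.45 and 2.14 in High-Low. High-Low 2 was the highest library in neither. MMP8, neutrophil collagenase, had at most 0.145 FPKM and is listed at 0 in 4 libraries, and OLFM4 is listed at 0 in all 6. Both are named after their values were seen.

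Of 17 mature neutrophil symbols 8 had an identifier and 4 were tested, with 0 passing, 1 positive and 3 negative (median -0.42). ITGB2, the shared beta chain of leukocyte integrins, had 13.3, 19.8 and 19.0 FPKM in 2×Trp and 7.74, 14.8 and 10.9 in High-Low. ALOX5AP, which serves leukotriene synthesis, had 21.2, 31.1 and 26.6 FPKM in 2×Trp and 11.2, 25.6 and 13.2 in High-Low. Both had their lowest value in High-Low 1, and High-Low 2 was inside the range of the others. CSF3R, the receptor for the neutrophil growth factor G-CSF, had between 0.213 and 0.424 FPKM in all 6 libraries, with 0.265 in High-Low 2. It fell under the filter and is named after its values were seen. S100A9, the partner of S100A8, and the receptors CXCR1 and CXCR2 had no identifier in the symbol table and were not analysed here. For 2 features without a symbol, the Ensembl identifiers come just before that of S100A8. They had 124 and 79.1 FPKM in High-Low 2, with 33.8 to 50.8 and 18.4 to 32.4 in the others. Which genes they are was not determined, and they were chosen after their values were seen.

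**Figure D4:**
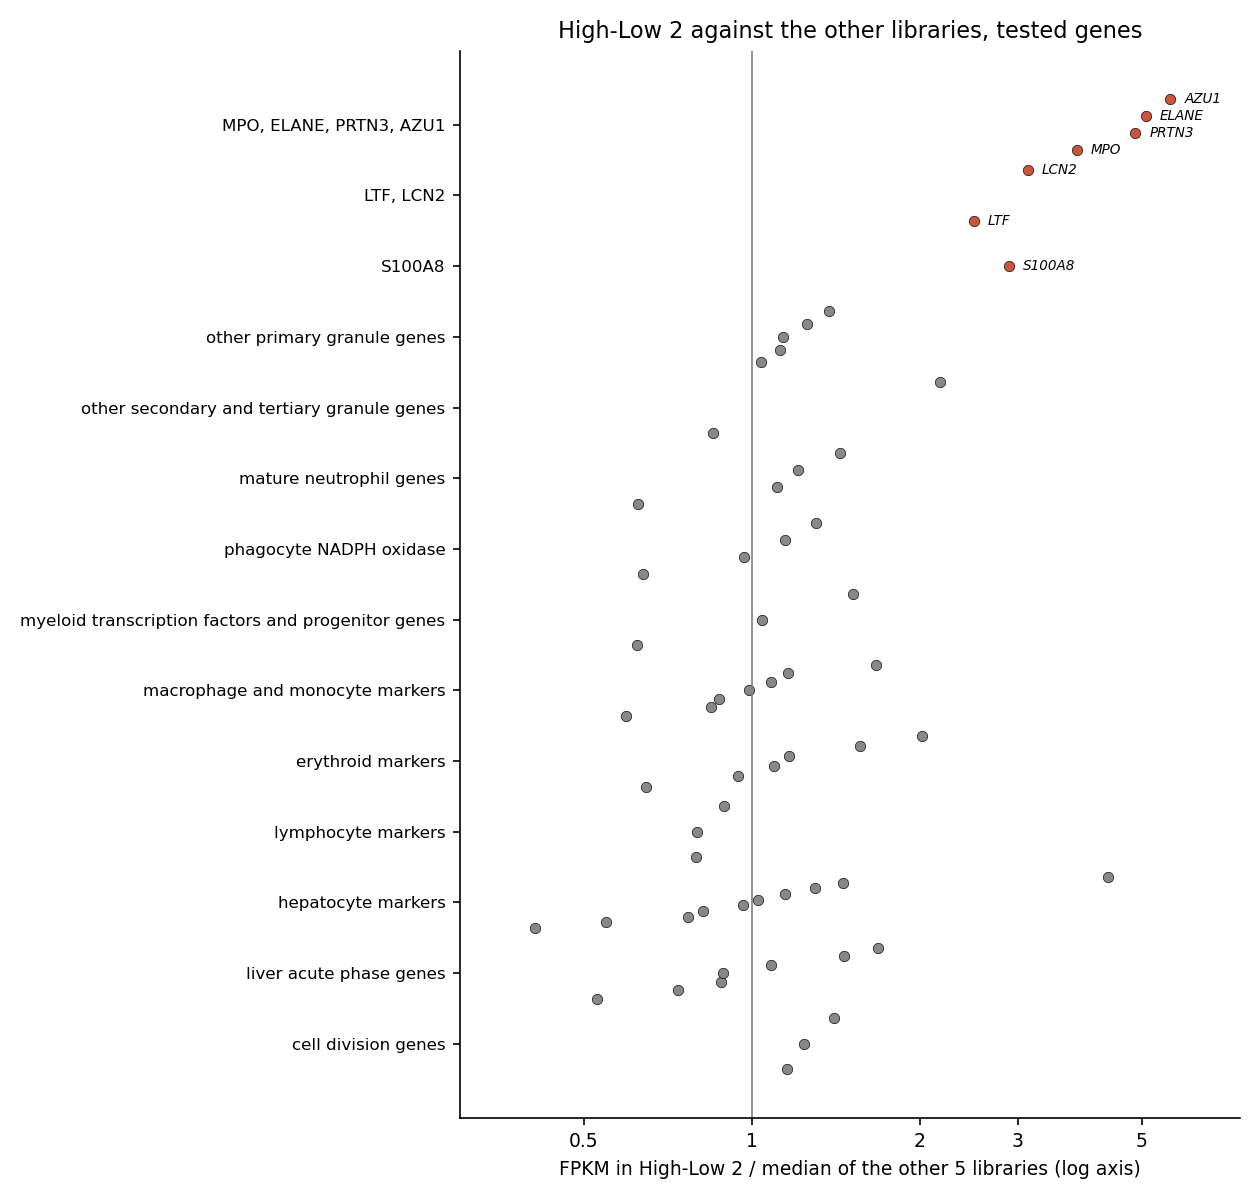
FPKM in High-Low 2 divided by the median of the other 5 libraries (log axis), for each tested gene. The 7 granulocyte genes (orange-red) lie between 2.50 and 5.63. Genes of the other 11 lists (grey) lie between 0.409 for APOB and 2.17 for MMP9, except the hepatocyte gene TF at 4.35.

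The oxidase that neutrophils and macrophages use to make superoxide was represented by 4 of 6 symbols, all tested, of which 0 passed, 1 was positive and 3 were negative (median -0.50). NCF4, a cytosolic subunit, had 5.99, 9.13 and 10.7 FPKM in 2×Trp and 2.13, 6.89 and 4.20 in High-Low. Its mean was thus lower in High-Low, while the 7 granulocyte genes had higher means there, and the groups overlapped. NCF4 did not pass either (adjusted p = 0.998 in limma).

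Regulators of myeloid development were mostly under the filter. Of 19 symbols for transcription factors and progenitor genes, 11 had an identifier and 3 were tested, of which 0 passed. SPI1 encodes PU.1, needed for all myeloid cells and expressed in macrophages too. It had 23.6, 29.5 and 37.1 FPKM in 2×Trp and 14.2, 24.6 and 19.7 in High-Low. CSF2RB, a receptor chain for GM-CSF, had 2.51, 3.17 and 2.99 FPKM in 2×Trp and 1.92, 1.56 and 1.89 in High-Low, without overlap and with its lowest value in High-Low 2. CEBPA, which starts granulocyte commitment and is abundant in hepatocytes, had 99.7, 57.3 and 76.5 FPKM in 2×Trp and 62.8, 116 and 96.9 in High-Low.

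CEBPE, the factor that turns on secondary granule genes in granulocyte precursors, had 0.402, 0.173 and 0.550 FPKM in 2×Trp and 0.552, 1.96 and 0.901 in High-Low. High-Low 2 was the highest library for it, as for the granule genes, but CEBPE passed 1 FPKM only there and was not tested. It is named after its values were seen, as are the next 3. GFI1, a repressor needed for neutrophil maturation, had at most 0.385 FPKM, and MYB, a factor of immature blood cells, at most 0.168. EPX, the eosinophil peroxidase, had 0.540 FPKM in High-Low 2 and between 0.149 and 0.225 in the other 5. Of the growth factors and chemokines of neutrophils, 6 of 11 symbols had an identifier and 0 passed the filter. CSF2, IL6 and IL17A are listed at 0 in all libraries, and the summed level of the 6 was at most 0.790 FPKM.

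Within 50 kb of PRTN3, ELANE or AZU1 the tables hold 14 features, PRTN3 and ELANE themselves included, of which 7 others were tested, and High-Low 2 was highest in 3 of these (KLF16, MISP and a feature without a symbol), against 23.8% of all features tested. KLF16, 6105 bases before PRTN3, had 20.8 FPKM in High-Low 2 and 8.89 to 15.2 in the other libraries. CFD, 2094 bases after ELANE, was level between High-Low 2 and 2×Trp 3 (both 175 FPKM). MED16, which follows CFD, had 7.46 FPKM in High-Low 2 and 6.58 to 9.65 in the others. MISP, 27778 bases from AZU1, had 2.35 FPKM in High-Low 2 and 0.176 to 1.95 elsewhere. High-Low 2 was thus 1.60 times the median of the other 5 libraries for KLF16 and 2.09 times for MISP, against 4.87 times or more for the 3 protease-family genes. These distances are those of susScr3. In the order on Sscrofa11.1, AZU1 follows PRTN3 and PLPPR3 follows AZU1, so KLF16 and MISP may not be near neighbours.

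Markers of other cells in the liver were read in the same libraries. Macrophage and monocyte markers had 7 of 12 symbols in the tables, all tested, with 0 passing, 6 negative and a median of -0.58. Their summed level was 1474 to 2008 FPKM in 2×Trp and 1089 to 1676 in High-Low, and relative to the mean of all libraries High-Low 2 stood at 0.05 on the log2 scale and High-Low 1 at -0.54. Erythroid markers had 9 of 12 symbols in the tables and 6 tested, with 0 passing, 5 negative and a median of -0.64. Their sum was 6174 to 15894 FPKM in 2×Trp and 1821 to 7201 in High-Low, with High-Low 2 at -0.08. Lymphocyte markers had 8 of 11 and 3 tested, with 0 passing, 3 negative and sums of 16.8 to 25.2 against 9.66 to 15.1 FPKM. No marker of these 3 lists is listed at 0 in all libraries. The granulocyte genes were therefore high in a library where the means of these 3 lists were close to the mean of all libraries. Single tested markers in High-Low 2 ran from 0.60 (CSF1R) to 1.67 (MARCO) times the median of the other 5 libraries among macrophage markers. Among erythroid markers they ran from 0.65 (HBM) to 2.02 (TFRC). Most lymphocyte markers were under the filter, where log2(FPKM + 1) moves little, so a mean near 0 says little for that list.

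The label newborn liver was met by high values of hepatocyte genes, such as ALB at 9391 to 19795 FPKM. Hepatocyte markers stood at 0.01 in High-Low 2 relative to the mean of all libraries, and liver acute phase genes at 0.01. Of the 7 acute phase genes tested 0 passed, with 2 positive and 5 negative (median -0.03). ITIH3, the gene of smallest p in that list, had 1570 FPKM in High-Low 2 and 797 to 1588 in the others. Among the hepatocyte markers TF, the iron carrier transferrin, had 16829 FPKM in High-Low 2, 4.35 times the median of the other 5, which ran from 1832 to 12410. TF is named after its values were seen, and its ratio of highest to lowest among the other 5 was larger than that of any of the 7 granulocyte genes. Cell division genes, which would mark cycling precursors of any lineage, had 9 of 15 symbols in the tables and 3 tested, of which 0 passed. They stood at -0.08 in High-Low 2 and highest in 2×Trp 2, at 0.45. Eosinophil, basophil and mast cell markers had 5 of 10 symbols in the tables and 0 tested. Their sum was 0.822 to 2.10 FPKM in 2×Trp and 0.451 to 2.33 in High-Low, and IL5RA, the eosinophil receptor for interleukin 5, is listed at 0 throughout.

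High-Low 2 also stood apart in genes that cells switch on within minutes of a stimulus, chosen here after their values were seen. FOS had 174 FPKM in that library and 2.35 to 23.3 in the others, and ATF3 had 12.2 and 1.04 to 2.81. The part of this difference in the granulocyte values was not tested.

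**Figure D5:**
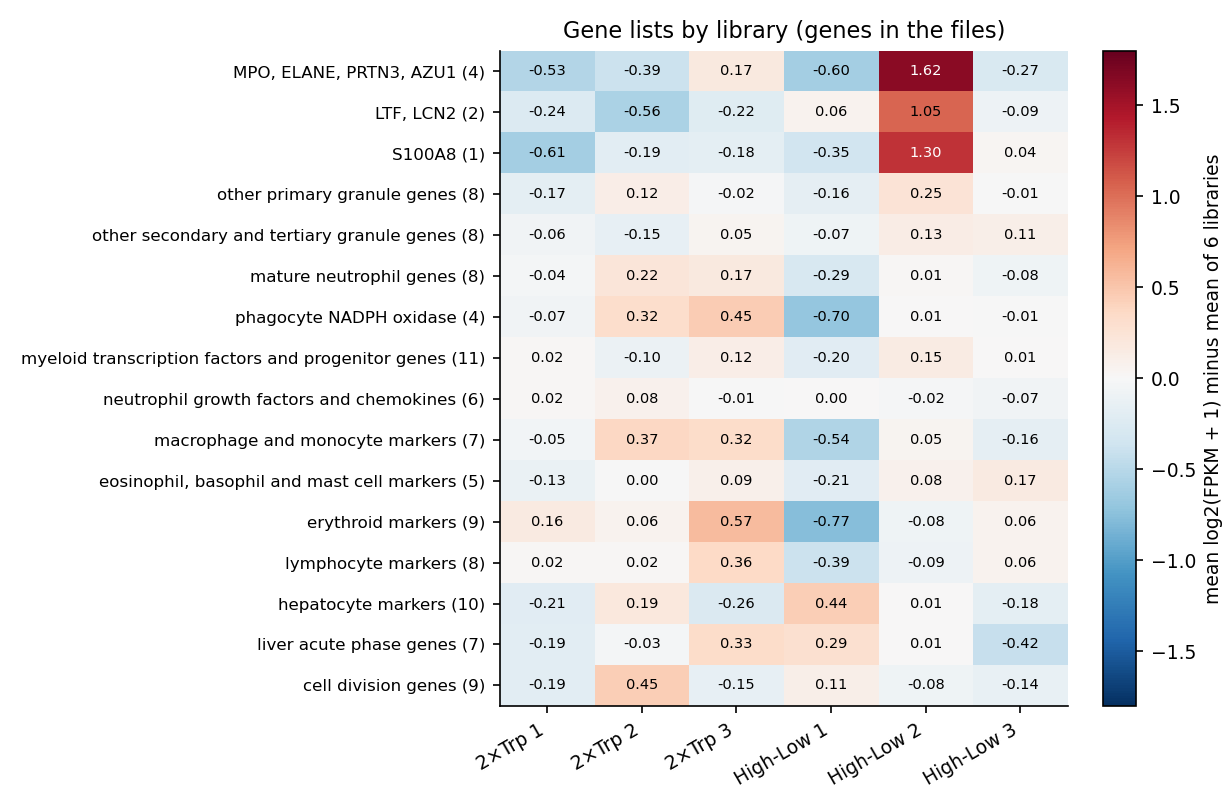
Mean log2(FPKM + 1) of each gene list in each library, relative to the mean of the 6 libraries, over the genes with an identifier (number in brackets). The granulocyte genes reach 1.05 to 1.62 in High-Low 2, while every other list lies between -0.09 and 0.25 there. The granulocyte genes all passed the filter on low values. Many genes of the other lists did not, and log2(FPKM + 1) flattens their differences, so the 2 are not compared on equal terms.

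Genes with a profile like that of the 4 primary granule genes were then looked for, with the 7 genes described here left out. Few other granule genes were tested, so the result cannot show whether granule genes resemble each other most. Over the 6 libraries, among 6525 tested genes with a symbol, Pearson's r with the mean standardised profile of the 4 genes was highest for TRIM26 (0.991), ZDHHC8 (0.984), SLC7A7 (0.984) and PRPF3 (0.979). TRIM26, a ubiquitin ligase, had 35.0 FPKM in High-Low 2 and 13.9 to 17.9 in the others. For LTF and LCN2 the most alike were APEX2 (0.993), PPP2R5D (0.990), TADA3 (0.979), CDH17 (0.972) and TMEM51 (0.970). TMEM51 had 17.9 FPKM in High-Low 2 and 7.02 to 8.78 elsewhere, and CDH17, an intestinal and bile duct cadherin, 4.51 and 0.936 to 2.50. With 6 points, 1 of which lies far from the rest, these values describe mainly the height of High-Low 2. Without that library r was 0.961 for TRIM26, 0.829 for ZDHHC8, 0.950 for APEX2 and 0.795 for TMEM51.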

How the data were processed

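RNA of newborn piglet liver was extracted with Trizol and made into libraries with an Illumina TruSeq RNA kit from 1 ug of total RNA, per the labels' protocols. The sample titles gave the diet and replicate number of the 6 libraries. Tools in the submitters' processing notes are TopHat2 2.0.12, Bowtie2 2.2.3 and HTSeq 0.6.1, with genome susScr3; how the values were made, with which annotation and strand setting, is unstated. The authors deposited 1 value per feature and library without a unit, read here as FPKM from the values. A value of exactly 0 can be a failed estimate. Symbols came from a table that named 11804 of 25322 Ensembl identifiers.

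The 10901 features that reached 1 FPKM in 3 or more libraries were tested with limma 3.58.1 (R 4.3.3) after the transform log2(FPKM + 1) (mean trend, robust moderation, Benjamini-Hochberg adjustment, threshold 0.05), which understates changes of low genes. The fit was tested on simulated data with known changes, all larger than those of the 7 genes. That run says nothing about its power for changes of their size. Scores of gene groups were given no test. The genes and lists were chosen with earlier results of these data known. Beyond the 7 genes, the text names the tested members of smallest p in each list, features within 50 kb of the chromosome 2 proteases and the most correlated genes per profile (up to 5); others are said to be named after their values were seen. Alternatives were another pseudocount, other filters and scalings, other variance settings, array weights, a replicate block and leaving out each library or gene. Figures used matplotlib 3.10.9. Some items that this rule names are not reported here. No sequences are printed, since no sequence table was used here.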

Additional observations from a re-analysis of the deposited data

How the results depend on the processing

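Of the 7 genes, 0 passed under any alternative run. LTF, LCN2 and S100A8 kept a positive log2 fold change in all of them (0.33 to 0.79, 0.28 to 1.01 and 0.17 to 1.00), scalings included. With array quality weights, which gave High-Low 2 the lowest weight (0.279), AZU1 turned to -0.25 and PRTN3 to -0.15. Leaving out single replicates gave -0.30 to 0.98 for AZU1, -0.43 to 0.92 for PRTN3, -0.013 to 0.81 for MPO and -0.011 to 1.00 for ELANE, each negative only without High-Low replicate 2. The primary minus secondary difference between the diets was -0.18, and -0.51 to 0.10 without single replicates, less than 1 SD (0.51) from the main value. Over all features, 1 to 2 were higher without single replicates, 2 without 2×Trp replicate 3, and 0 lower; 1 was lower with scaling to the FPKM total, the same leaving out the 20 most abundant genes, quantile normalization and array weights. A filter at a mean of 5 FPKM left MPO, LTF and LCN2 out. Same-numbered libraries of the diets did not deviate together (r of -0.22, -0.01 and 0.03). With 3 libraries per diet, these values cannot exclude a pairing by number. The fit with a replicate block called 1 higher and 0 lower features and left AZU1 at 0.52 and LTF at 0.62. Unknown depth limits all genes under a few FPKM.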

Other observations

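High-Low 2 had at least 2 times the next library for 92 of the features tested. Of these, 49 have a symbol, and 6 of the 49 are MPO, ELANE, PRTN3, AZU1, LCN2 and S100A8. High-Low 1 led by as much in 108 features, and each of the other 4 libraries in 17 to 30. By the length of the lead, PRTN3 (3.88 times the next library) and AZU1 (3.19 times) held ranks 5 and 6 among the 49, after CCN1, FOS, TRIM15 and ATF3. RETN, which encodes the secreted protein resistin, came next with 31.4 FPKM in High-Low 2 and 4.89 to 10.3 in the others. SOCS1, an inhibitor of cytokine signalling, had 96.0 FPKM against 15.1 to 32.5. DUSP1, an early response phosphatase, had 318 FPKM against 34.9 to 129.5. GNLY, the cytotoxic granule protein granulysin, had 4.95 FPKM against 0.616 to 1.82, and CCN1, a matrix protein of the early response, 75.1 against 3.72 to 9.83. These genes were chosen after their values were seen.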
